A study of Homo sapiens with 32 samples.

Results

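The response to OTS964 was measured in the 4 libraries labelled DLD1 wild-type, 2 from cells given OTS964 at 100 nM for 6 h and 2 from cells given the solvent DMSO for the same time, out of 32 libraries in the series. The libraries were taken by their titles, and both treatment groups carry the label wild-type for the drug target. The whole study used 4 human cancer lines, the melanoma line A375, the colorectal line DLD1 and the breast lines Cal51 and MDA-MB-231, each wild-type or with a G579S mutation that its design text describes as making cells resistant to inhibition of CDK11. Cells were grown in DMEM with serum. The comparison groups were wild-type A375 with OTS964 or DMSO and, for markers and for scale, DLD1 G579S, wild-type Cal51 and wild-type MDA-MB-231 with the same treatments, with 2 libraries in each group. The identity of the 4 libraries is in doubt, because they carry markers of melanocytes and only a few percent of the colorectal RNA found in DLD1 G579S. They are therefore called the libraries labelled DLD1 wild-type. Their lineage markers, their counts of genes called and a part of the lists and single genes are set beside wild-type A375.

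CDK11A and CDK11B encode near-identical kinases that pair with the cyclins CCNL1 and CCNL2 and act in transcription and pre-mRNA splicing. The kinase activates the spliceosome by phosphorylating SF3B1, a subunit of the U2 particle, and SAP30BP is a cofactor of the complex. OTS964 is a small molecule that blocks this kinase. A block of transcription or splicing lowers short-lived transcripts first, so that stable messenger RNAs make up a larger share of what remains. Immediate early genes, such as FOS and EGR1, are short, are switched on within minutes by signals through ERK or p38, and code for short-lived messenger RNAs.

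The libraries labelled DLD1 wild-type held 16091376 and 17390872 estimated reads with OTS964, against 22433717 and 18805657 with DMSO, within the 16091376 to 29742687 of the whole series. Levels are CPM, counts scaled to a common library size, after scaling by the trimmed mean of M values (TMM), with factors of 0.7297 and 0.7727 in the OTS964 libraries, against 1.0907 and 1.0962 in the DMSO libraries. Transcripts with predicted identifiers, most of which could not be matched to a gene, took 9.05% and 9.30% of the reads with OTS964, against 11.8% and 12.0% with DMSO. No library was identical to another. Nothing in the labels says whether paired libraries were separate cultures, so a p-value reflects just the variation among these samples, and that variation may be technical. The threshold for an adjusted p is 0.05. Those of the main gene tests below are from edgeR's quasi-likelihood F test with Benjamini-Hochberg adjustment over 14318 genes. Those of transcript usage are from edgeR's diffSpliceDGE with Simes' method, over 7052 genes. Alternatives, such as fits with 1 library left out, were adjusted over the genes tested in each. Each ± beside a log2 fold change is a standard error.

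The lineage markers of the libraries labelled DLD1 wild-type were those of A375 rather than of DLD1 G579S. Over 22 melanocyte markers the summed level was 1053 to 1243 CPM with OTS964 and 1480 to 1577 CPM with DMSO. In wild-type A375 it was 692 to 770 CPM with OTS964 and 1109 to 1134 CPM with DMSO, and in DLD1 G579S it was 99.6 to 106 CPM and 117 to 124 CPM. SOX10, the transcription factor of the neural crest and melanocyte lineage, had 241 and 385 CPM with OTS964, against 737 and 695 CPM with DMSO. In DLD1 G579S under DMSO SOX10 had 0.938 and 1.63 CPM. PAX3 and EDNRB, further genes of that lineage, were at 0 in both DMSO libraries of DLD1 G579S and above 0 in all 4 libraries labelled DLD1 wild-type. The pigment genes were at or near 0 in the libraries labelled DLD1 wild-type as they were in A375, with TYR and DCT at 0 in all 4 and MLANA at 0.252 CPM in the second OTS964 library alone. The mesenchymal intermediate filament VIM, which epithelial cells make little of, had 6380 and 6111 CPM with OTS964, against 3571 and 3478 CPM with DMSO. In A375 VIM had 5341 and 5603 CPM with OTS964, against 3323 and 3369 CPM with DMSO, and in DLD1 G579S it stayed under 10 CPM. On the authors' TPM scale, per transcript length and without TMM, the 2 treatments overlapped for VIM. There the libraries labelled DLD1 wild-type had 2889 and 2990 TPM with OTS964, against 2957 and 2848 TPM with DMSO. A375 had 2757 and 2878 TPM, against 2695 and 2760 TPM.

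A small amount of colorectal epithelial RNA was present as well. The summed level of 30 colorectal epithelial markers was 1214 to 1351 CPM with OTS964 and 807 to 853 CPM with DMSO, against 409 to 431 CPM and 463 to 467 CPM in wild-type A375, where much of it was the keratin gene KRT18. In DLD1 G579S the sum was 17949 to 18101 CPM with OTS964 and 13113 to 13567 CPM with DMSO. EPCAM, an epithelial adhesion molecule, had 36.9 and 49.2 CPM in the OTS964 libraries labelled DLD1 wild-type, against 15.6 and 28.0 CPM in the DMSO libraries. In A375 it reached at most 0.167 CPM. On the authors' TPM scale EPCAM had 21.5 and 30.9 TPM with OTS964 in the libraries labelled DLD1 wild-type. With DMSO it had 16.6 and 29.5 TPM, so that the treatments overlapped there. Markers at 10 CPM or more in DLD1 G579S and under 1 CPM in A375 had a median level of 3.75% and 5.00% of that in DLD1 G579S with OTS964 (19 markers), against 2.29% and 3.63% with DMSO (18 markers). With TMM scaling the medians of the 2 treatments did not overlap. The TMM factors with OTS964 were 0.7297 and 0.7727, against 0.9602 and 0.9706 in DLD1 G579S. With DMSO they were 1.0907 and 1.0962, against 1.1539 and 1.14 in DLD1 G579S. The scaling thus raised the shares with OTS964 more than those with DMSO, and the marker sets were not the same. Whether the medians stay apart without TMM was not tested. In bulk RNA fewer cells of a type and less RNA per cell cannot be told apart, and a carried-over cell population cannot be told apart from mixed RNA.

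The colorectal markers moved in both directions with OTS964. Of 25 tested, 8 rose and 3 fell (4 and 4 with library totals), where 22.2% of all genes tested rose and 27.7% fell. The intestinal factor CDX2 had 10.8 and 12.8 CPM with OTS964, against 2.84 and 3.66 CPM with DMSO, and KRT8, EPCAM, CDH1, KRT19, ST14, AGR2 and SPINT1 also rose. GRHL2, which keeps epithelial cells in that state, fell to 0.191 and 0.755 CPM with OTS964, against 1.54 and 2.49 CPM with DMSO (log2 fold change −2.03 ± 0.59, adjusted p = 0.0095), but it did not pass the test without the first OTS964 library (adjusted p = 0.090, in a range of 0.00077 to 0.11 over the alternatives) or without the second DMSO library. In DLD1 G579S itself GRHL2 had 124 and 118 CPM with OTS964, against 109 and 108 CPM with DMSO. The transcription factor MYB and the tight junction gene CLDN4 fell as well, and both also fell in A375. Leaving out the 846 tested genes that DLD1 G579S expressed at 10 times or more the level of A375 left 7007 genes called of 13471.

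**Figure D1:**
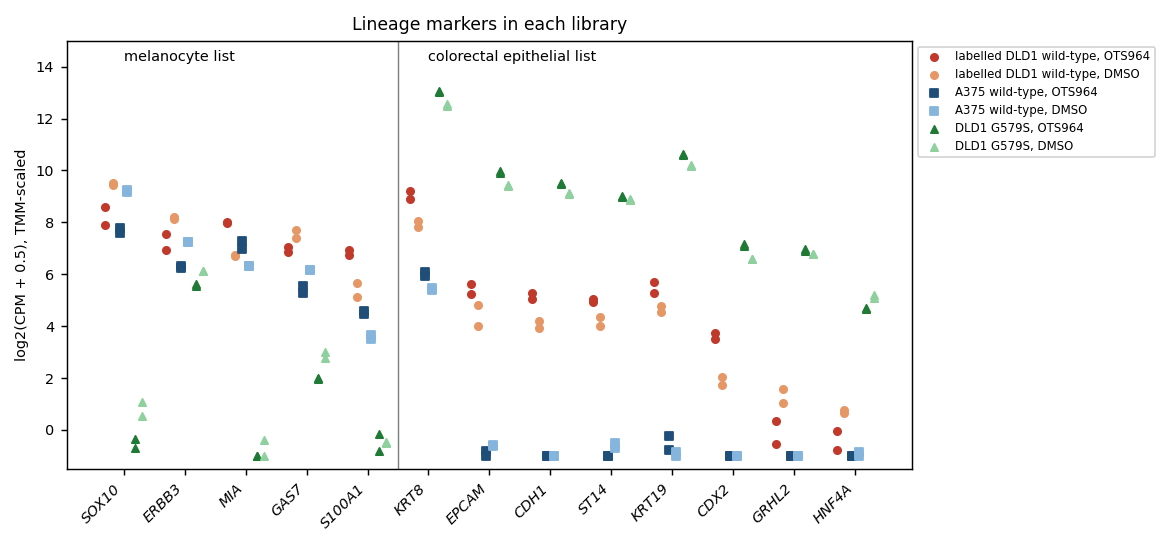
Level of 5 melanocyte and 8 colorectal epithelial markers in each library, as log2 of the TMM-scaled CPM plus 0.5 on the vertical axis, with 1 point per library and colours and shapes for the 6 groups of the legend. The libraries labelled DLD1 wild-type lie with A375 for SOX10 and MIA, and between A375 and DLD1 G579S for EPCAM and CDH1.

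The melanocyte list had 17 members tested, of which 2 rose and 4 fell with OTS964, where 22.2% of all genes tested rose and 27.7% fell. SOX10 fell by 1.19 on the log2 scale (SE 0.25, adjusted p = 0.00051) and its target ERBB3 had 121 and 185 CPM with OTS964, against 299 and 282 CPM with DMSO. Both treatments were apart for both genes, and both genes fell in A375 too. S100A1, a calcium-binding protein, rose to 105 and 123 CPM with OTS964, against 34.2 and 50.0 CPM with DMSO. MIA, a secreted melanoma protein, had 257 and 253 CPM with OTS964, against 107 and 105 CPM with DMSO. MITF, which drives the melanocyte program, had 3.73 and 8.64 CPM with OTS964, against 15.7 and 12.0 CPM with DMSO. Its fall of 1.15 on the log2 scale had an adjusted p of 0.011, which became 0.17 without the first OTS964 library and 0.086 without the first DMSO library, in a range of 0.0011 to 0.17 over the alternatives. In A375 MITF had 17.3 and 19.3 CPM with OTS964, against 10.2 and 17.2 CPM with DMSO, and the difference between the responses of MITF did not pass the test (adjusted p = 0.41).

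The 2 OTS964 libraries labelled DLD1 wild-type differed from each other more than the other 5 pairs of DLD1 and wild-type A375 libraries compared. Over all 16 pairs of the series, the chi-square of their counts per degree of freedom was 47.84, above 13 pairs and below the 86.871 of Cal51 G579S with DMSO and the 85.683 of wild-type MDA-MB-231 with OTS964. Of 7437 genes compared, 127 (1.71%) differed by 4-fold or more, with 109 higher in the second library and 18 in the first. In the DMSO pair 17 of 8533 genes did (0.199%), and in the OTS964 pair of A375 14 of 7654 (0.183%). The standard deviation of the log2 ratio between the 2 libraries was 0.642 with OTS964 and 0.367 with DMSO. The median size of a gene's change from the DMSO mean was 0.856 on the log2 scale in the first OTS964 library and 0.742 in the second, against 0.678 in A375. Immediate early genes at least 2-fold apart were mostly higher in the first library, and feedback genes of the ERK pathway went both ways. Of 34 immediate early genes at 1 CPM or more, 12 were at least 2-fold higher in the first and 4 in the second. Of 22 ERK feedback genes at that level, 2 were at least 2-fold higher in the first and 4 in the second. Of all 8241 genes at 10 CPM or more, 153 were at least 2-fold higher in the first and 682 in the second. The floors of the lists and of all genes differ, so these shares are not compared like for like. EGR1 had 2178 CPM in the first library and 95.8 CPM in the second. SPRY4, an inhibitor of growth factor signalling, was at 0 in the first library and at 66.7 CPM in the second, and its relative SPRY2 had 32.3 and 260 CPM. The fall of SPRY4 over both libraries (adjusted p = 0.0498) did not pass the test without the first (adjusted p = 0.12), and its adjusted p was 9.3e-06 to 0.13 over the 4 fits with 1 library left out. Of 55 KRAB zinc finger genes at 1 CPM or more, 21 were at least 2-fold higher in the second library and 3 in the first. The only background counted is the same 682 and 153 of 8241 genes at 10 CPM or more.

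**Figure D2:**
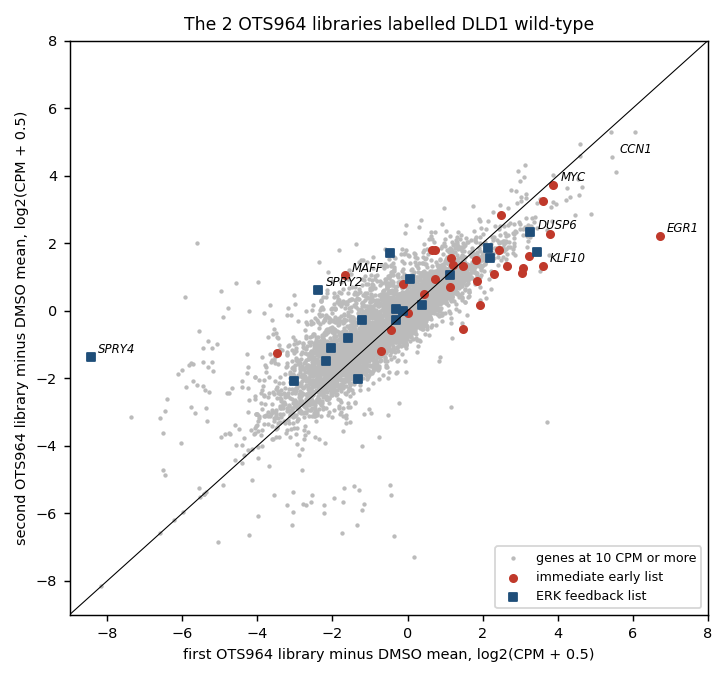
Change of each gene at 10 CPM or more from the mean of the DMSO libraries in the first (horizontal axis) and second (vertical axis) OTS964 library labelled DLD1 wild-type, as differences of log2(CPM + 0.5), with the immediate early and ERK feedback lists in colour and the line of equal change. EGR1 and KLF10 lie below the line, and SPRY4, SPRY2 and MAFF above it.

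OTS964 changed 7153 of 14318 genes (50.0%) in the libraries labelled DLD1 wild-type, of which 3184 (22.2%) were higher and 3969 (27.7%) lower. With a change of at least 2-fold as well, 1374 (9.6%) were higher and 3086 (21.6%) lower, 4460 in all (31.1%). In wild-type A375 6564 genes were called (45.8%, with 20.8% higher and 25.0% lower), of which 838 rose (5.85%) and 2641 fell (18.4%) by at least 2-fold. The median log2 fold change of all genes was −0.11 with TMM scaling and −0.65 with library totals alone. With library totals 7273 genes were called, of which 20.4% were higher, in place of 44.5% with TMM. DESeq2 called 3997 genes higher and 3815 lower, and edgeR with DESeq2's size factors 3706 and 3502. The balance of rises and falls thus turned with the scaling, as did the direction of genes and lists with a small change. With library totals 1482 of all genes were higher and 5791 lower, and most lists below had fewer rises and more falls.

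The drug target itself did not pass the test in either copy. CDK11A had 19.7 and 22.0 CPM with OTS964, against 29.3 and 23.7 CPM with DMSO (log2 fold change −0.35 ± 0.15, adjusted p = 0.063), and CDK11B had 35.3 and 42.6 CPM, against 50.7 and 50.8 CPM (−0.38 ± 0.16, adjusted p = 0.060). Neither passed the threshold, although the values of each gene did not overlap between treatments, and reads of these near-identical paralogs can be assigned to either. On the authors' TPM scale, per transcript length and without TMM, CDK11A had 7.12 and 8.57 TPM with OTS964, against 19.4 and 15.5 TPM with DMSO. CDK11B had 13.5 and 17.6 TPM with OTS964, against 35.3 and 35.0 TPM with DMSO, so that both were lower by over 2-fold on that scale. The cyclin partner CCNL1 rose to 34.3 and 62.9 CPM with OTS964, against 2.70 and 4.60 CPM with DMSO (3.74 ± 0.40, adjusted p = 2.1e-07), while CCNL2 had 21.5 and 20.0 CPM, against 14.0 and 17.7 CPM, and did not pass the test (adjusted p = 0.24). SAP30BP fell to 22.9 and 20.3 CPM, against 64.0 and 59.9 CPM (−1.52 ± 0.10). SF3B1, the substrate, rose to 407 and 465 CPM, against 280 and 284 CPM (0.63 ± 0.11).

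Of the 19 genes of the CDK11 complex and other transcription kinases and cyclins, 2 rose, 9 fell and 8 did not pass the test, with a median of −0.74, where 27.7% of all genes fell. CCNK, the cyclin of CDK12 and CDK13, had 19.9 and 22.9 CPM with OTS964, against 63.1 and 58.1 CPM with DMSO. CDK13 fell by 1.21 on the log2 scale and CDK12 by 1.98, though CDK12 had 11.7 CPM in the first OTS964 library and 44.7 CPM in the second and its change was −3.27 with the first alone and −1.33 with the second alone. CDK7, the kinase of the general factor TFIIH, had 10.3 and 24.9 CPM, against 54.8 and 55.9 CPM, and fell by 1.65 on the log2 scale or by 2.43 without the second OTS964 library. CDK9, the elongation kinase, had 96.7 and 78.1 CPM, against 80.9 and 87.9 CPM, values that overlap. CDK7's cyclin CCNH was called higher (0.52 ± 0.16, adjusted p = 0.0080), a direction that turned to −0.01 with library totals. Of the 42 Mediator and Integrator subunits, which link RNA polymerase II to activators and end its short transcripts, 7 rose and 20 fell (median −0.91, with 3 higher and 27 lower with library totals). MED29 fell to 14.8 and 13.5 CPM, against 75.7 and 77.5 CPM, while MED26 rose to 69.3 and 124 CPM, against 29.4 and 30.7 CPM.

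Among single genes the largest rises included secreted signals and transcription factors. EGR1, a zinc finger factor of the immediate early class, had a log2 fold change of 5.80 ± 0.80 (adjusted p = 5.2e-06), but 2.23 without the first OTS964 library and 6.74 without the second. CCN1, a secreted matrix protein and target of YAP and SRF, had 6337 and 3411 CPM with OTS964, against 132 and 157 CPM with DMSO (5.08 ± 0.22, adjusted p = 2.2e-12). Its 2 groups lay far apart. EDN1, the vessel-constricting peptide endothelin, had 68.8 and 25.3 CPM, against 0.745 and 1.27 CPM (5.55 ± 0.39, and 4.66 without the first OTS964 library). PRDM1, a repressor of transcription in lymphocytes and other lineages, had 110 and 140 CPM, against 4.42 and 3.71 CPM (4.94 ± 0.25). CREBZF, a leucine zipper factor, had 492 and 290 CPM, against 8.80 and 5.43 CPM (5.77 ± 0.36). ARHGAP30, MORC2, FAM218A, FAM120AOS, KRTAP2-3 and ZNF460 rose by 4.30 to 4.76 on the log2 scale, with 3.61 for ZNF460 and 3.69 for FAM218A without the first OTS964 library, and all 6 rose in A375 as well. The fitted rise of ADCY3, an adenylate cyclase, was set by values of 0 in both DMSO libraries, against 5.55 and 19.8 CPM with OTS964. In A375 ADCY3 had 0 and 16.4 CPM in the 2 OTS964 libraries, against 23.3 and 40.0 CPM with DMSO, and without the second OTS964 library labelled DLD1 wild-type its adjusted p was 0.13, in a range of 1.9e-17 to 0.14 over the alternatives.

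The 12 largest falls were all genes at 0 in both OTS964 libraries labelled DLD1 wild-type. A 0 covers the matched transcripts of a gene only, since reads placed on unmatched predicted transcripts were not counted. SRRM2, which spliceosomes of every cell carry, was at 0 in all 4 libraries. TSKU, a secreted signalling antagonist, was at 0 with OTS964, against 36.4 and 36.6 CPM with DMSO, at least 136-fold lower against a floor of 3 counts per library. SIRT7, a nucleolar deacylase, had 22.6 and 19.7 CPM with DMSO and was at least 78.5-fold lower. ZSCAN29, a zinc finger gene, had 21.9 and 18.8 CPM with DMSO and was at least 75.6-fold lower. KLHL25, a ubiquitin ligase adaptor, had 20.5 and 14.8 CPM with DMSO and was at least 65.5-fold lower, and PRR14L was at least 86.7-fold lower. SIRT7, ZSCAN29, KLHL25 and PRR14L were at 0 in both OTS964 libraries of A375 too. RNMT, which methylates the messenger RNA cap, was at 0 with OTS964, against 44.4 and 51.1 CPM with DMSO, and at least 177-fold lower. In A375 RNMT had 9.70 and 13.6 CPM with OTS964, against 53.4 and 44.2 CPM with DMSO. The chromatin remodelling subunit ARID2, the factor RFX1, RBM12B, TNRC18, MTMR3 and DTX2 make up the rest.

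Loss of all counts from at least 10 CPM in both partner libraries ran in 1 direction between treatments. Of 18854 genes, 24 were at 0 in both OTS964 libraries labelled DLD1 wild-type with at least 10 CPM in both DMSO libraries. The reverse pattern held for 0 genes at this floor, which ADCY3, at 0 with DMSO, did not reach in 1 OTS964 library. In A375 16 genes were at 0 in both OTS964 libraries by the same rule. Of the 24, 5 were at 0 in both OTS964 libraries of A375 as well and 5 were above 0 in both. Between the 2 OTS964 libraries 29 genes went to 0 in just 1 library while its partner held at least 10 CPM, and between the 2 DMSO libraries 22.

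**Figure D3:**
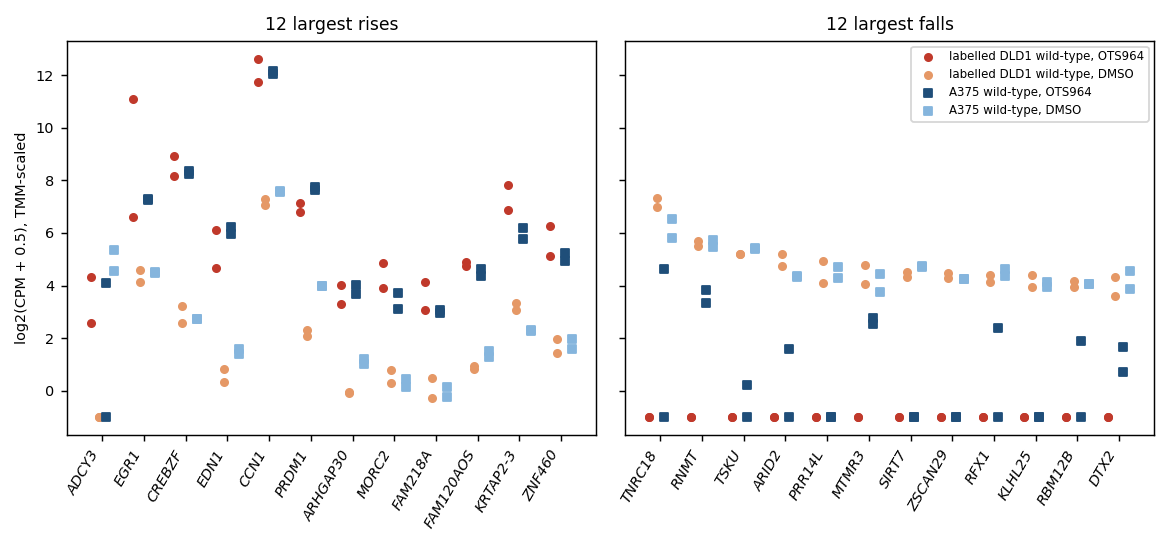
Level of the genes with the 12 largest rises (left) and the 12 largest falls (right) with OTS964 in the libraries labelled DLD1 wild-type, as log2 of the TMM-scaled CPM plus 0.5 on the vertical axis, with 1 point per library for OTS964 and DMSO in those libraries and in A375. The genes on the right sit at 0 CPM with OTS964 in the libraries labelled DLD1 wild-type, while RNMT, MTMR3 and DTX2 keep reads in A375.

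Immediate early genes rose as a list. Of 35 tested, 24 rose and 4 fell, against 22 and 4 in A375. Of all genes tested 22.2% rose and 27.7% fell. The median was 1.42, with 1.31 without the first OTS964 library and 1.65 without the second. With library totals 19 were higher and 5 lower, and the median was 0.87. MYC, which drives growth and ribosome synthesis, had 527 and 477 CPM with OTS964, against 28.9 and 43.3 CPM with DMSO (3.80 ± 0.16, adjusted p = 2.6e-12). In A375 MYC had 467 and 472 CPM, against 33.8 and 35.2 CPM. CSRNP1, a nuclear factor first found as a target of axin, had 369 and 289 CPM, against 27.9 and 31.7 CPM. GADD45B, a stress sensor upstream of p38, had 246 and 85.6 CPM, against 18.5 and 15.9 CPM (3.26, and 2.31 without the first OTS964 library). Both values of each of these 3 genes with OTS964 exceeded both with DMSO.

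Subunits of the AP-1 transcription factor differed among themselves. FOS had 53 and 13.4 CPM with OTS964, against 5.50 and 6.37 CPM with DMSO, and FOSB 38.1 and 49.1 CPM, against 6.89 and 5.93 CPM. JUNB had 796 and 227 CPM, against 90.0 and 99.4 CPM. These 3 subunits rose, and FOSL1 fell, with 30.9 and 146 CPM with OTS964, against 398 and 304 CPM with DMSO. JUN had 110 and 26.9 CPM, against 44.9 and 34.4 CPM, so that its groups overlapped (adjusted p = 0.068). JUND fell by 0.52 on the log2 scale. With the second OTS964 library alone the changes of FOS, JUNB and FOSL1 were 1.18, 1.26 and −1.27, and with the first alone 3.15, 3.07 and −3.51. ZFP36, which destroys messenger RNAs of immediate early genes and cytokines, fell to 5.74 and 4.36 CPM, against 15.8 and 12.7 CPM, while its relative ZFP36L1 rose to 193 and 141 CPM, against 85.1 and 89.0 CPM.

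SRF, the factor that binds the CArG box in promoters of immediate early and cytoskeletal genes, fell to 51.8 and 36.9 CPM, against 96.0 and 74.1 CPM (−0.94 ± 0.15, adjusted p = 2.5e-05). The 3 promoters below, read from RefSeq on the build GRCh38.p14 as 250 bases before to 50 after the start of the gene, are shown because they belong to genes with a CArG box that moved in different directions. They lie at chr5:138465229-138465528 on the plus strand (EGR1), chr6:43171019-43171318 on the plus strand (SRF) and chr17:81512750-81513049 on the minus strand (ACTG1, a cytoplasmic actin), and capitals mark the CArG boxes.
EGR1: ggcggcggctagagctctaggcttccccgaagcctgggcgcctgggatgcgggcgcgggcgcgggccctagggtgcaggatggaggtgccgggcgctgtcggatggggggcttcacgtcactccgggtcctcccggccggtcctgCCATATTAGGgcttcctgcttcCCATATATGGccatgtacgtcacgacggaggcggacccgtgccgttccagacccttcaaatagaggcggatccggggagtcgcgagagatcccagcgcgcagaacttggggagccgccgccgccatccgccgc
SRF: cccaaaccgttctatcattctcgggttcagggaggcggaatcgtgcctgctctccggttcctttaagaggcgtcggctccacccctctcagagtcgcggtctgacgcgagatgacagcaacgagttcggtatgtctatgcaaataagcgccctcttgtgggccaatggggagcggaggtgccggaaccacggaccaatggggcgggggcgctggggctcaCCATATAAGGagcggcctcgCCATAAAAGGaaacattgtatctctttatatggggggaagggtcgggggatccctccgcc
ACTG1: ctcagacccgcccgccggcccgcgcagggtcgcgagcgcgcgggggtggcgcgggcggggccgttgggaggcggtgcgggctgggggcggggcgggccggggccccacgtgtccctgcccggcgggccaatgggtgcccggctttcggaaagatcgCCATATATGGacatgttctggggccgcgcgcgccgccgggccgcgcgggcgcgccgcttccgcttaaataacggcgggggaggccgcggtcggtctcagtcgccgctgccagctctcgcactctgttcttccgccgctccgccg

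EGR1 and SRF have 2 CArG boxes each in this window and ACTG1 has 1. With OTS964 EGR1 rose by 5.80 on the log2 scale and ACTG1 by 0.97, while SRF fell by 0.94. The box, searched for on both strands, was found in 351 of 27305 promoters of this length (1.285%) and in 129 of the 11587 promoters of genes tested. Of 25 immediate early promoters listed there 2 held it (EGR1 and SRF), and of 23 promoters of YAP and SRF targets 4 did (SRF, FHL2, ACTG1 and FLNA). FHL2 had 1.82 and 15.0 CPM with OTS964, against 17.9 and 4.43 CPM with DMSO, and FLNA, an actin crosslinker, rose by 0.98. Members with a box thus moved both ways.

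Targets of YAP and SRF, which answer to cell tension and density, had 15 of 31 tested higher and 8 lower. The share that was lower was near the 27.7% of all genes, of which 22.2% were higher. With library totals 10 were higher and 11 lower, and their median of 0.45 became −0.09. CCN2, a matrix protein related to CCN1, rose to 1320 and 1089 CPM with OTS964, against 111 and 129 CPM with DMSO (3.33 ± 0.11). FJX1, a kinase of the Golgi, had 838 and 722 CPM, against 66.8 and 79.3 CPM. The kinase NUAK2 and the stress gene GADD45A rose too. AJUBA, a LIM protein that binds Hippo kinases, fell to 23.2 and 10.2 CPM, against 80.5 and 74.1 CPM, and the phosphatase PTPN14 to 42.5 and 50.4 CPM, against 145 and 150 CPM. ANKRD1, AMOTL1 and AMOTL2 fell as well. The fall of AJUBA was 2.22 on the log2 scale, with −2.93 without the first OTS964 library.

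Feedback genes of the ERK pathway moved both ways. Of 24 tested, 7 rose and 5 fell, near the 22.2% and 27.7% of all genes, and 5 were higher and 10 lower with library totals (median −0.10, 0.11 without the first OTS964 library and −0.41 without the second). DUSP6, a phosphatase that switches off ERK, had 2068 and 1076 CPM with OTS964, against 224 and 206 CPM with DMSO (2.87 ± 0.18, adjusted p = 1.4e-10). DUSP5, its nuclear relative, rose to 232 and 190 CPM, against 49.9 and 55.1 CPM. DUSP4 had 224 and 1005 CPM with OTS964, against 268 and 357 CPM with DMSO. The first OTS964 value of DUSP4 lay below both DMSO values and the second above, and its change was −0.49 with the first library alone and 1.68 with the second alone. PHLDA1, a pleckstrin homology protein, rose to 2073 and 1316 CPM, against 469 and 427 CPM. ETV5, a factor of the ETS family, fell to 10.1 and 20.0 CPM, against 85.6 and 85.6 CPM, while ETV4 had 183 and 194 CPM, against 209 and 185 CPM (adjusted p = 0.73). SPRED1 and SPRED2, which hold back RAS, and HMGA2, a chromatin protein, fell.

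Genes of NF-kB signalling had 5 of 24 tested higher and 8 lower, near the 22.2% and 27.7% of all genes. The subunits RELA and RELB fell, RELA to 32.0 and 34.4 CPM with OTS964, against 106 and 113 CPM with DMSO. The inhibitor TNFAIP3 rose to 50.6 and 33.8 CPM, against 7.55 and 8.31 CPM, and the chemokine CXCL8 to 61.8 and 104 CPM, against 10.1 and 25.0 CPM. The rise of CXCL8 was 2.24 on the log2 scale, and 3.03 without the second DMSO library. The median of 0.14 was −0.63 without the second OTS964 library and −0.39 with library totals.

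Ribosomal protein genes and genes of the respiratory chain rose nearly without exception. All 79 cytosolic ribosomal protein genes tested rose, with a median of 1.15, against 22.2% of all genes. RPL15 had 3683 and 3240 CPM with OTS964, against 1266 and 1355 CPM with DMSO, and RPL3 4295 and 3872 CPM, against 1834 and 1835 CPM. With library totals 75 of the 79 were still called higher (median 0.60). Of 74 nuclear-encoded members of the respiratory chain and ATP synthase 71 rose and 0 fell (median 1.04), with 50 higher and 1 lower under library totals. ATP5F1B, the catalytic subunit of ATP synthase, had 2597 and 2290 CPM, against 1120 and 1236 CPM, and SDHB, of succinate dehydrogenase, 253 and 216 CPM, against 116 and 122 CPM. Proteasome subunits had 26 of 31 higher and 1 lower, PSMD12 (median 0.73), but 10 higher and 4 lower with library totals (median 0.19). Translation initiation factors had 25 of 35 higher and 2 lower, but 7 higher and 9 lower with library totals, where their median of 0.46 became −0.09. EIF5, which triggers GTP hydrolysis at the start codon, fell to 86.0 and 127 CPM, against 250 and 278 CPM. In A375 78 ribosomal protein genes and 72 genes of oxidative phosphorylation rose.

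Of 45 core spliceosome genes tested 29 rose and 4 fell, with a median of 0.50. With library totals 10 were higher and 14 lower, and the median became −0.04. SF3B6 had 215 and 272 CPM with OTS964, against 85.2 and 114 CPM with DMSO, and SNRPF, of the Sm ring, 274 and 240 CPM, against 121 and 128 CPM. PRPF4 and SNRNP40, of the U4/U6 and U5 particles, fell. Among 31 SR proteins and splicing kinases tested 7 rose and 10 fell (median −0.40), and 4 were higher and 17 lower with library totals. With TMM their shares were near the 22.2% and 27.7% of all genes. SRSF2 rose to 1472 and 1252 CPM, against 393 and 428 CPM, and SRSF8 to 210 and 146 CPM, against 31.1 and 40.4 CPM. The kinases of these proteins fell or did not pass the test apart from DYRK2, which rose to 196 and 264 CPM, against 72.5 and 63.7 CPM. SRPK2 had 11.9 and 15.8 CPM with OTS964, against 56.4 and 62.2 CPM with DMSO, and CLK1 3.92 and 4.11 CPM, against 17.8 and 14.4 CPM.

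Among 21 genes of cleavage and polyadenylation, 4 rose and 7 fell, near the 22.2% and 27.7% of all genes. CPSF4 fell to 3.25 and 3.78 CPM with OTS964, against 49.2 and 42.0 CPM with DMSO (−3.69 ± 0.17, adjusted p = 8.0e-12). CPSF7 had 25.9 and 25.8 CPM, against 134 and 136 CPM. The kinase CLP1 rose to 208 and 158 CPM, against 35.3 and 40.9 CPM, and CSTF2T, an intronless copy of CSTF2, to 301 and 184 CPM, against 55.5 and 55.9 CPM, while CSTF2 had 109 and 98.5 CPM, against 102 and 89.1 CPM (adjusted p = 0.49). With library totals 2 of the 21 were higher and 14 lower, and the median of 0.12 was −0.43.

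Of 64 histone genes 39 were tested, of which 8 rose, a share near the 22.2% of all genes, 0 fell and 31 did not pass the test (median 0.97). Histone genes share sequence, so reads can be assigned to another copy. H2BC21 had 11.2 and 13.4 CPM with OTS964, against 1.58 and 2.22 CPM with DMSO. SLBP, which binds the stem-loop that ends histone messenger RNAs, fell to 8.61 and 14.9 CPM, against 109 and 179 CPM (−3.61 ± 0.23, adjusted p = 2.8e-10). NPAT, their transcriptional activator, had 8.13 and 9.48 CPM, against 28.6 and 29.7 CPM, and CASP8AP2 and LSM10 also fell. Of the 13 genes of histone processing 2 rose and 5 fell, or 0 and 10 with library totals, and SRRT, called higher, had −0.15 with library totals.

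**Figure D4:**
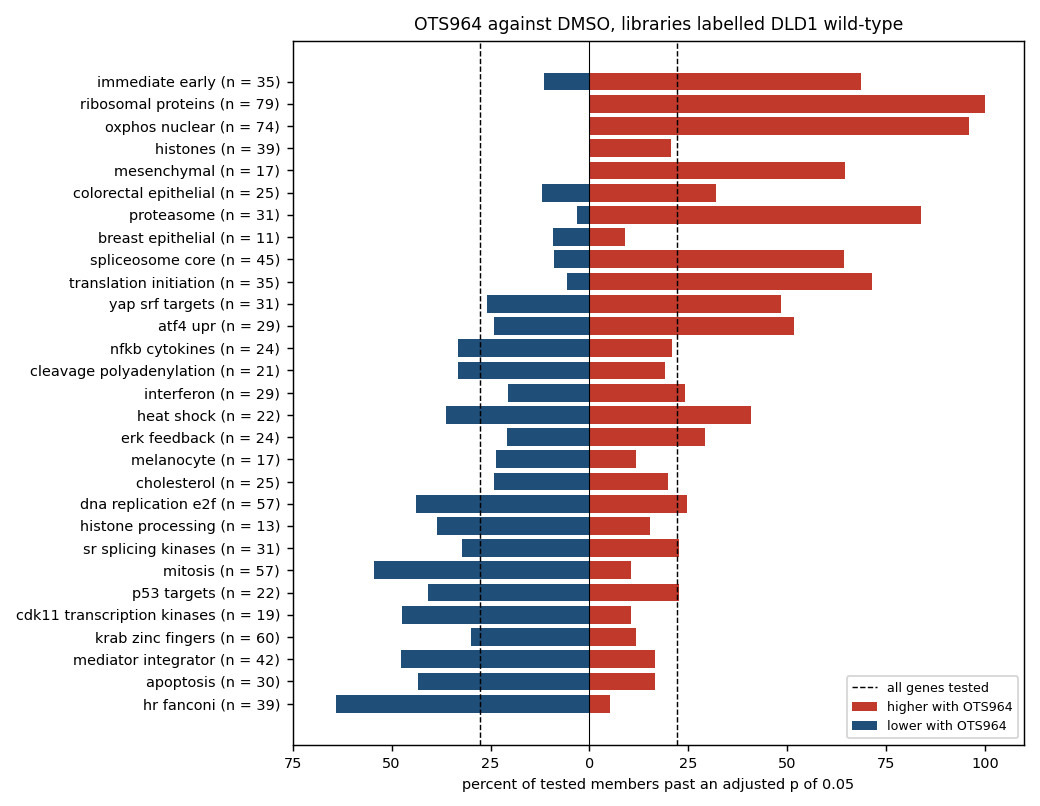
Percent of the tested members of each gene list with 10 or more of them that passed an adjusted p of 0.05 as higher (right, red) or lower (left, blue) with OTS964 in the libraries labelled DLD1 wild-type, ordered by median log2 fold change, with dashed lines at the 22.2% and 27.7% of all genes tested. Ribosomal proteins and oxidative phosphorylation extend farthest to the right and homologous recombination farthest to the left, while the medians of the spliceosome, translation initiation, YAP and SRF, cleavage, NF-kB, unfolded protein response and interferon lists change sign with library totals.

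Of 57 mitosis genes 31 fell and 6 rose (median −0.59), against 29 and 3 in A375. Of all genes tested 27.7% fell and 22.2% rose. With library totals 46 of the mitosis genes were lower and 1 higher. CDCA5, the cohesin protector sororin, had 39.6 and 34.3 CPM with OTS964, against 188 and 192 CPM with DMSO, and TTK, a spindle checkpoint kinase, 4.59 and 8.64 CPM, against 52.2 and 39.4 CPM. PTTG1, the separase inhibitor, rose to 218 and 228 CPM, against 109 and 132 CPM. Of 39 homologous recombination and Fanconi anaemia genes 25 fell and 2 rose (median −1.19), against 21 and 2 in A375. With library totals 31 were lower and 1 higher. MUS81, a nuclease for joint molecules, had 9.47 and 5.79 CPM, against 52.2 and 42.2 CPM, and RAD54L, a strand exchange motor, 9.27 and 6.38 CPM, against 39.4 and 42.5 CPM. FANCF, whose gene has no introns, rose to 43.4 and 33.4 CPM, against 11.8 and 13.4 CPM, and the rise of FANCI turned to −0.0072 with library totals. Of 57 genes of DNA replication and E2F targets 25 fell and 14 rose, against 28 and 8 in A375. The share of them that rose was near the 22.2% of all genes. With library totals 31 were lower and 2 higher. E2F7, a repressor of that program, had 7.94 and 7.39 CPM, against 57.2 and 68.2 CPM, while TYMS, of thymidylate synthesis, rose to 674 and 547 CPM, against 349 and 393 CPM.

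Targets of p53 moved both ways, with 5 of 22 higher and 9 lower, or 2 and 14 with library totals. With TMM 22.2% of all genes were higher and 27.7% lower. CDKN1A, the cell cycle inhibitor p21, rose to 307 and 445 CPM with OTS964, against 178 and 218 CPM with DMSO (0.93 ± 0.14, adjusted p = 1.1e-05), and MDM2, which degrades p53, fell to 61.0 and 74.8 CPM, against 113 and 153 CPM. AEN, an exonuclease of apoptosis, fell to 7.65 and 11.8 CPM, against 205 and 183 CPM, and SESN2, a brake on growth, to 2.58 and 4.11 CPM, against 25.8 and 35.8 CPM. The antiproliferative gene BTG2 rose to 36.7 and 48.1 CPM, against 14.4 and 17.9 CPM.

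Among 30 regulators of apoptosis 13 fell and 5 rose (median −0.96, with 18 lower and 2 higher under library totals). Of all genes tested 27.7% fell and 22.2% rose. BAK1, an effector that opens the outer mitochondrial membrane, fell to 2.96 and 1.34 CPM with OTS964, against 45.8 and 42.3 CPM with DMSO (−4.37 ± 0.22, and −5.03 without the first OTS964 library). BAX, the other effector, rose to 220 and 206 CPM, against 141 and 119 CPM. MCL1, a short-lived protector, rose to 990 and 985 CPM, against 684 and 665 CPM, and BCL2L2 fell to 12.2 and 14.4 CPM, against 38.0 and 46.5 CPM. The initiator caspase CASP2 and CFLAR, which holds caspase 8 in check, fell. PMAIP1, which neutralises MCL1, rose to 70.2 and 93.0 CPM, against 32.5 and 44.3 CPM.

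Stress and metabolic lists moved both ways with TMM scaling. Across all genes tested 22.2% rose and 27.7% fell, and the interferon and cholesterol lists were near these shares. Of 22 heat shock genes 9 rose and 8 fell, or 5 and 12 with library totals. HSP90AA1 had 10496 and 8309 CPM with OTS964, against 4664 and 4479 CPM with DMSO, while HSPA1A, the inducible chaperone, fell to 130 and 141 CPM, against 1754 and 1097 CPM. Among 29 ATF4 targets and genes of the unfolded protein response 15 rose and 7 fell (median 0.39), or 8 and 10 with library totals (median −0.16), with the chaperone HSPA5 at 2354 and 2313 CPM, against 1372 and 963 CPM. Of 29 interferon genes 7 rose and 6 fell (median 0.04), or 1 and 11 with library totals (median −0.49). Of 25 cholesterol genes 5 rose and 6 fell, or 0 and 14 with library totals. Of 60 KRAB zinc finger genes 7 rose and 18 fell, against 14 and 15 in A375. Their median was −0.76, with −0.41 without the first OTS964 library and −1.23 without the second. The share of them that fell was near the 27.7% of all genes. Of 17 mesenchymal genes 11 rose and 0 fell, or 9 and 1 with library totals. VIM and COL6A1 were among those that rose with TMM, though the VIM values overlapped in TPM. Of 4 immune genes tested only CD68 rose, and of 11 breast epithelial genes FOXA1 rose and XBP1 fell (−1.36, and −2.32 without the second OTS964 library).

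The response varied with transcript length. Genes whose most abundant matched transcript was under 1000 bases had a median log2 fold change of 0.88 (862 genes, 52.1% higher and 4.76% lower), and those from 1000 to under 2000 bases 0.21 (3035 genes). The median was −0.16 from 2000 to under 4000 bases (5813 genes), −0.55 from 4000 to under 8000 bases (3837 genes) and −0.83 at 8000 bases or more (771 genes, 5.97% higher and 35.5% lower). With library totals the medians were 0.33 under 1000 bases, −0.17 from 1000 to under 2000 and −1.37 at 8000 or more, so that the sign of the second class turned and the order stayed. Genes under 1000 bases in A375 had a median of 0.70, and those of 8000 bases or more −0.59.

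Transcript usage, the share of each matched transcript in the counts of its gene, changed in 114 of 7052 genes tested (1.62%), but in 49 with a replicate block and 52 to 80 with 1 library left out. The files list spliced transcripts only, so retained introns cannot be read from them. CLK1, a kinase that regulates its own splicing, was counted on the transcript NM_001162407.1 in 100% of reads in both OTS964 libraries, against 0% and 1.15% with DMSO, where NM_004071.3 took the rest (adjusted p = 0.0019). In A375 the share of NM_001162407.1 was 100% in both OTS964 libraries, against 0% and 6.09% with DMSO. The counts behind the CLK1 shares were 41 and 49 with OTS964, against 383 and 260 with DMSO. RBBP6, a ubiquitin ligase that also takes part in messenger RNA 3′ end formation, was counted on its short transcript NM_032626.5 (1763 bases) in 97.4% and 93.0% of reads with OTS964, against 3.19% and 5.44% with DMSO. GSKIP, which binds GSK3, and the histone deubiquitinase MYSM1 switched transcripts by 95.5 and 91.8 percentage points on average (adjusted p = 0.00029 and 0.046). In A375 the GSKIP transcript NM_001271904.1 took 50.9% and 71.1% with OTS964, against 2.99% and 6.26% with DMSO. The MYSM1 transcript XM_006710314.1 took 27.4% in the OTS964 library of A375 with counts, against 20.9% and 31.7% with DMSO, values that overlap. SREK1, a splicing factor, was counted entirely on NM_139168.3 with OTS964 and entirely on NM_001077199.2 with DMSO, from 23 to 112 counts per library (adjusted p = 0.049). ZBTB22 switched completely as well (adjusted p = 0.048), but its 2 OTS964 libraries of A375 did so between themselves, with 100% in 1 and 0% in the other.

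The responses of the libraries labelled DLD1 wild-type and of A375 were close. Of the 7153 and 6564 genes called, 5868 were called in both, which is 82.0% of the first and 89.4% of the second, and 5860 of them had the same direction. Across 8203 genes with at least 10 CPM on average and no 0, Pearson's r of the log2 fold changes was 0.952, and it was 0.573 across all 14318 genes, which include fitted changes of genes at 0. Genes are not independent replicates, so these are descriptions. The responses differed in 31 genes (0.217%), 8 (0.0559%) with the higher and 23 (0.161%) with the lower value in the libraries labelled DLD1 wild-type, where 962 genes had an unadjusted p under 0.05 and DESeq2 called 144. The count rested on the OTS964 libraries labelled DLD1 wild-type, with 71 genes without the first and 948 without the second. When only the 8 libraries compared were fitted, edgeR called 0 genes, with 691 at an unadjusted p under 0.05. Against wild-type Cal51 the responses differed in 1163 genes (8.12%), of which 539 (3.76%) were higher and 624 lower. With library totals 798 were higher and 374 lower, and DESeq2 gave 931 and 872. Against wild-type MDA-MB-231 they differed in 2708 (18.9%), of which 883 (6.17%) were higher and 1825 lower, while DESeq2 gave 1647 and 1721 and only the groups compared 254 and 165. Against DLD1 G579S they differed in 5256 (36.7%). For the last of these, genotype and cell identity cannot be told apart.

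Of the 31 genes whose responses differed 16 were called lower in both, and 14 of these fell further in the libraries labelled DLD1 wild-type. Of the rest, 4 were called higher in both, 4 in opposite directions and 7 in the libraries labelled DLD1 wild-type alone. CCM2, a scaffold of endothelial junctions, had 3.16 and 1.34 CPM with OTS964, against 29.4 and 26.5 CPM with DMSO, and in A375 it had 9.14 and 9.12 CPM, against 26.6 and 21.9 CPM (difference of log2 fold changes −2.24 ± 0.32, adjusted p = 0.0021). SGPP1, a phosphatase of sphingosine phosphate, had 1.34 and 1.59 CPM, against 10.5 and 10.6 CPM, and in A375 5.27 and 5.97 CPM, against 10.9 and 9.85 CPM (−1.95 ± 0.25, adjusted p = 0.00066). The nuclear receptor PPARD, the deubiquitinase USP3, the zinc finger protein HIVEP1, the nucleoporin NUP35 and the adenosine receptor ADORA2B also fell further, by 1.01 to 2.32 on the log2 scale.

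Genes with the higher response in the libraries labelled DLD1 wild-type included feedback inhibitors. SOCS3, which blocks cytokine receptors, had 39.4 and 25.4 CPM with OTS964, against 19.6 and 20.8 CPM with DMSO, and in A375 17.4 and 14.4 CPM, against 28.4 and 31.5 CPM. SOCS3 rose in the libraries labelled DLD1 wild-type, by 0.68 or by 0.33 without the first OTS964 library, and fell in A375 (difference 1.59 ± 0.24, adjusted p = 0.0033). IER5L, of the immediate early class, was also higher in the libraries labelled DLD1 wild-type (0.59, or 0.44 without the second OTS964 library, which did not pass the test) and lower in A375 (−0.82). DUSP6 rose in both, with a difference of 1.13 (adjusted p = 0.0496) that was 0.58 without the first OTS964 library and no longer passed without any 1 of the DMSO or A375 libraries. FOXA1, a pioneer factor of epithelia, had 16.1 and 21.7 CPM, against 4.98 and 6.54 CPM, while in A375 it had 6.12 and 7.30 CPM, against 8.69 and 8.62 CPM (difference 2.09, adjusted p = 0.012). FOXA1 is among the genes that DLD1 G579S expressed at 10 times or more the level of A375. The part of the small share of colorectal RNA in this difference was not tested. Of the 31 genes 22 reached 10 CPM and 16 of those were not of that class.

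**Figure D5:**
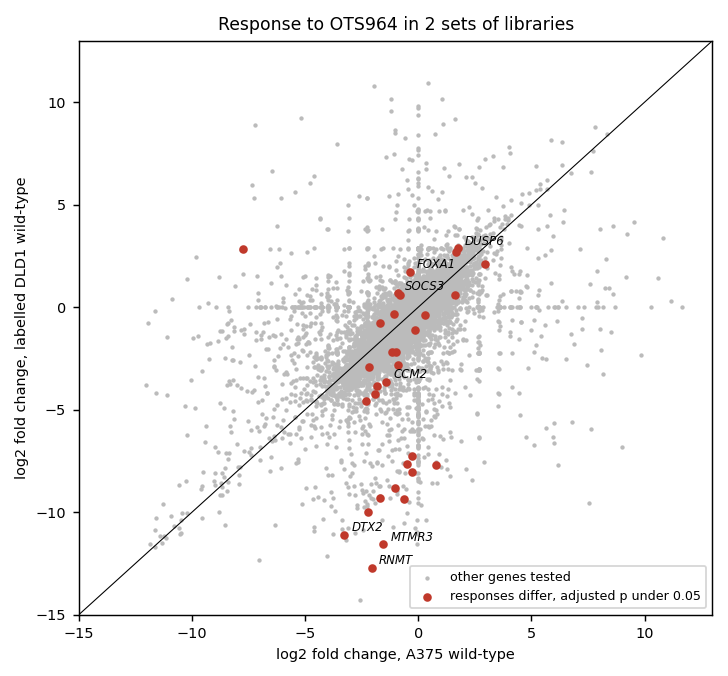
Log2 fold change with OTS964 against DMSO of each gene tested in the libraries labelled DLD1 wild-type (vertical axis) and in wild-type A375 (horizontal axis), with the line of equal change and the 31 genes whose responses differed at an adjusted p under 0.05 in red. Points on the vertical or horizontal extremes are genes at 0 in 1 treatment, whose fitted values depend on the prior count.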

How the data were processed

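RNA was sequenced from 32 libraries, made with a SMARTer mRNA kit from column-purified RNA per the labels' protocols. Per the file headers, the tables deposited by the authors give a TPM value and an estimated count of reads for each transcript, with its length and effective length. The quantification tool and its annotation are not given in the sources used here. The identifiers are human RefSeq accessions, although GRCm38 and mm10, both mouse builds, are what the submitters' processing notes list. Of 87398 identifiers 42587 matched a gene in the RefSeq table given (99.1% of curated and 20.3% of predicted messenger RNAs, and none of 19749 numbered transcripts), for 18854 genes. No other per-sample column was left out.

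Estimated counts were summed over the matched transcripts of each gene and rounded. Genes were filtered with filterByExpr, scaled by TMM and tested with edgeR 4.0.16 in R 4.3.3 in 1 model of 16 groups and 32 libraries (16 residual degrees of freedom), with contrasts for each response and for each difference of responses. Each standard error is the size of the log2 fold change divided by the square root of F. Transcript usage was tested with diffSpliceDGE and Simes' method. TPM values served only in the length-scaled alternative and for the levels of CDK11A, CDK11B, VIM and EPCAM given in TPM. The code was tested on simulated counts with 200 genes changed.

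The members, the 30 gene lists and the tests were chosen with earlier results of these data known. Genes named by rule are the target and its partners, the 12 largest rises and falls, up to 6 members of each list by adjusted p, the melanocyte and colorectal markers, the largest differences from A375 and the 6 largest usage changes. Further list members, among them the AP-1 subunits, the SPRY genes, DUSP4, CDK9, CDK12, BAX, CSTF2, ETV4 and the members with a CArG box, and SRRM2, were chosen after their values were seen. A few genes that the rule names are not reported here. The alternatives were DESeq2 1.42.0, its size factors, library totals, no filter, length-scaled TPM, only the groups compared, a replicate block, each library left out, and no colorectal genes.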

Additional observations from a re-analysis of the deposited data

Results flagged for a closer look

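The response in the libraries labelled DLD1 wild-type differed from that in A375, by an interaction contrast in edgeR's quasi-likelihood test, in 31 genes. Of these 17 were followed by name. The difference of log2 fold changes was positive for FOXA1 (2.09), SOCS3 (1.59), IER5L (1.42), DUSP6 (1.13), FAM43A (1.02), AP5B1 (0.91) and TOR4A (0.76). It was negative for USP3 (−2.32), PPARD (−2.29), CCM2 (−2.24), HIVEP1 (−2.01), SGPP1 (−1.95), NUP35 (−1.19) and ADORA2B (−1.01). For RNMT (−10.65), MTMR3 (−10.03) and DTX2 (−7.85) the fitted differences come from genes at 0 in both OTS964 libraries labelled DLD1 wild-type, depend on the prior count and are no bound. USP3 had 1.05 and 1.34 CPM with OTS964, against 21.4 and 24.5 CPM with DMSO, and in A375 5.63 and 6.22 CPM, against 26.1 and 19.0 CPM. FAM43A had 133 and 120 CPM, against 18.6 and 20.6 CPM, and in A375 43.9 and 43.1 CPM, against 13.7 and 13.5 CPM.

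Numbered transcripts with no gene name, which enter no comparison, took 3.547% and 3.71% of the reads in the OTS964 libraries labelled DLD1 wild-type, against 2.73% and 2.66% in the DMSO libraries.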

How the results depend on the processing

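The count of genes called in the libraries labelled DLD1 wild-type (7153) was 5269 to 7812 over the alternatives, including 6230 to 6835 with 1 library left out. The difference from A375 (31 genes) varied with the setting: 144 genes by DESeq2, 15 with a replicate block, 0 by edgeR with only the groups compared (691 at an unadjusted p under 0.05), and 15 to 948 with 1 library left out. Against Cal51 (1163 genes) the counts were 1803 by DESeq2, 383 with only the groups compared and 727 to 1854 with 1 library left out. Against MDA-MB-231 (2708 genes) they were 419 and 1968 to 4216, and against DLD1 G579S 4292 to 5516. Transcript usage (114 genes) gave 49 with the block and 52 to 80 with 1 library left out. The cause of these shifts was not tested. Same-numbered libraries did not deviate together (correlation 0.068, and 0 in A375). Such a correlation cannot show whether they were paired in culture or preparation, which the labels do not say. The block gave 6898 genes for the libraries labelled DLD1 wild-type and 6252 for A375. Of the named genes, the responses under library totals kept direction and call in 204, lost the call in 19, gained it in 5 and turned in 5: CCNH −0.014, FANCI −0.0072, KRT18 −0.32, NCAPD2 −0.11 and SRRT −0.15. RBBP6 turned to 0.42 with length-scaled TPM. Of the 17 named differences from A375, 17 lost the call with only the groups compared and 12 with the block. Medians of lists without 1 OTS964 library were added after seeing the data. Depth limits genes under a few CPM, where 3 counts are the floor.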
